A study of Mus musculus with 6 samples.

Results

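The germ line genes described here are 10 genes chosen by name, namely Dppa3, Dppa5a, Dazl, Ddx4, Mael, Sycp3, Stk31, Asz1, Prdm1 and Nanos3. All 10 were found among the 24421 gene entries of a bulk RNA-seq count table from mouse induced pluripotent stem cells (iPSCs), cells reprogrammed to a state like that of embryonic stem cells. The SRF KO group (n = 3 libraries) came from cells with both alleles of the serum response factor gene deleted (SRFΔ/Δ). The WT group (n = 3) carried the conditional, undeleted alleles (SRFf/f), so that both groups derive from an engineered conditional allele. Both were grown in medium with serum, and the labels do not say whether the replicates of a group are separate clones, separate cultures or repeats of 1 culture, so that p-values measure the spread between these libraries only.

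Germ cells are set aside early in the mouse embryo, when signals to the epiblast switch on PRDM1 and its partners in a few cells. These become primordial germ cells, in which DNA methylation is erased, and they later enter meiosis and guard their genome with small RNAs of the piRNA pathway. In body cells many germ line genes are kept silent by methylation of CpG-rich promoters. In pluripotent cells they are held down in addition by a Polycomb complex that contains MGA, MAX, PCGF6 and E2F6, which is recruited through E-box and E2F motifs, and a number of them are known to be transcribed there at low levels.

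The promoters of the members were read from RefSeq (GRCm38.p6, the assembly also called mm10, which is the build in the submitters' processing notes). Windows of 300 bases, from 250 before to 50 after an annotated start, were matched for 8 of the 10 genes, with 9 windows in all, because Stk31 has 2 overlapping windows. The E-box CACGTG, which reads the same on both strands, was in the windows of 4 of the 8 genes, Ddx4, Mael, Sycp3 and Stk31, and Sycp3 held it at 2 places. The same letters were in 7.15% of the 32851 windows of all genes, and in the windows of 2187 of the 27025 genes. They contain a CpG, and the members' windows had a median of 24 CpGs against 7 for all windows. The share among windows of like CpG content was not computed. The stretches below show it in capitals, since the E-box is 1 of the motifs through which the Polycomb complex is recruited. They lie upstream of the RefSeq starts used, on chr10:88459487-88459566 (plus strand), chr6:49395439-49395538 (plus strand), chr1:166238895-166238994 (minus strand) and chr13:112652321-112652350 (minus strand). In a second annotation, GENCODE M21, Ddx4 begins further upstream, at chr13:112652475, so that its stretch lies within the span of the gene there.
Sycp3: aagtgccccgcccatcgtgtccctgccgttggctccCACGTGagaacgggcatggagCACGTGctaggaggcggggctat
Stk31: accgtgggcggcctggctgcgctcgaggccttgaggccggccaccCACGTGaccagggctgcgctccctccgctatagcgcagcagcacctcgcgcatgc
Mael: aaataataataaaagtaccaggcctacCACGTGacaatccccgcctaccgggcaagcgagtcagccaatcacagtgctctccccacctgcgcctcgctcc
Ddx4: gcgtccgcccgCACGTGcagccgtttaagc

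The E2F6 core GCGGGAA, searched on both strands, was in the windows of 2 of the 8 genes, Ddx4 and Sycp3. It was in 4.60% of all windows and in the windows of 1429 of the 27025 genes, and it also contains a CpG. It does not overlap the E-boxes. It began 136 bases before the RefSeq start in Ddx4 (chr13:112652428-112652457, minus strand) and 147 bases before it in Sycp3 (chr10:88459429-88459458, plus strand). This Ddx4 stretch, too, lies within the GENCODE M21 span of the gene. The core is in capitals.
Ddx4: ccgtccatgggGCGGGAAgtcgcgcgccgc
Sycp3: aggaaggaacaGCGGGAAagtgctgcttct

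The CArG box, the motif that SRF itself binds, matched none of the 9 windows and was in 1.63% of all windows. No match says only that these letters are not in these windows. The remaining 4 genes had none of the 3 motifs, and they are shown for their CpG content, with each CpG in capitals (chr17:50293637-50293736, chr10:44458749-44458848, chr6:18109062-18109161 and chr8:84176553-84176652, all on the minus strand).
Dazl: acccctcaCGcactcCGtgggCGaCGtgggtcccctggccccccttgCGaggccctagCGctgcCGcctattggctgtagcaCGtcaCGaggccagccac
Prdm1: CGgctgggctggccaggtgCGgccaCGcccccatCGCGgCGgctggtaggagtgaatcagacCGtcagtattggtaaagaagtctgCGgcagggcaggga
Asz1: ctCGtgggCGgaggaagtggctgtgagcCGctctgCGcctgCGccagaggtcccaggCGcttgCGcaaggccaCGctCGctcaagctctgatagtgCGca
Nanos3: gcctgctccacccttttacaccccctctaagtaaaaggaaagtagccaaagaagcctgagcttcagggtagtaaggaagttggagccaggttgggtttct

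Over the full windows, Ddx4 had 38 CpGs, more than 95.1% of all promoter windows, and Nanos3 had 3, more than 23.3%. The windows of Nanos3 and Prdm1 lie inside the GENCODE M21 spans of these genes. Those spans begin further upstream, at chr8:84185217 and chr10:44528501 (both minus strand), and no window was read there. Dazl had 28, Mael 24, Prdm1 20, Asz1 17 and Sycp3 15, while the median window of all genes had 7. Sycp3 had more CpGs than 65.4% of all windows and Asz1 more than 68.6%, so that 7 of the 8 matched genes were above the median window and Nanos3 was under it.

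Library totals were between 26321602 and 36680156 counts. The targeted gene Srf had 84 to 131 counts in the SRF KO libraries and 765 to 1326 in the WT libraries, in the direction of the labels. The first principal component separated the groups, and WT replicate 2 stood apart from the other WT libraries on the second. Several of the results that change without it, but not all, are therefore given both ways. The pluripotent state of the cells was checked on 10 marker genes, all of which were detected in every library. The 2 most abundant of these, Esrrb and Klf4, were lower in SRF KO, with log2 fold changes of -0.49 and -0.52. Pou5f1, the central pluripotency factor, is not among the 10 and was named after its values were seen. It was at 773 ± 11.3 CPM in SRF KO against 818 ± 52.4 CPM in WT (SD, n = 3). CPM here are counts scaled to a common library total by TMM, a trimmed mean of ratios that equalizes libraries.

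Markers of late germ cells were at or near the floor for the most part. Of 18 spermatid and oocyte genes in the table, 12 had at most 3 counts in each of the 6 libraries, and 4 of these (the protamine gene Prm2, Tnp2, Acrv1 and Oosp1) had 0 in all, which allows up to 3 counts or between 0.0828 and 0.117 CPM. Nanos2, a male germ cell gene, also had at most 3 counts in each library.

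Divided by the length of their merged exons, the levels of the members differed widely. Dppa5a was at 2643 ± 203 CPM per kb in WT (SD, n = 3), above 99.99% of 14244 tested genes with a known length. Dppa3 followed at 35.8 ± 2.54, then Sycp3 at 13.1 ± 2.75, Ddx4 at 9.88 ± 0.314 and Mael at 8.67 ± 0.860 CPM per kb. Stk31 (2.35 ± 0.187) and Prdm1 (2.19 ± 0.107) overlapped each other and were the only neighbours in the WT order that did. Dazl came next at 1.53 ± 0.100, Nanos3 at 0.778 ± 0.246 and Asz1 last at 0.0304 ± 0.00763 CPM per kb. Between Dppa3 above and Nanos3 below, the members other than Dppa5a and Asz1 thus sat from the 21.7th to the 90.5th percentile of tested genes, within the ordinary range of transcribed genes.

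The order was different in SRF KO. Dppa3 moved from the second to the third place, at 8.47 ± 0.422 CPM per kb, where its libraries overlapped those of Ddx4 (8.79 ± 0.705) and Sycp3 (7.49 ± 0.866). Sycp3 in turn overlapped Mael (6.39 ± 0.874). Dazl, at 1.86 ± 0.198, ranked above Stk31 (1.85 ± 0.201) and Prdm1 (1.16 ± 0.143 CPM per kb), although its libraries overlapped those of Stk31. The plot of level per length shows that Dppa5a stayed apart from the other members in both groups.

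**Figure D1:**
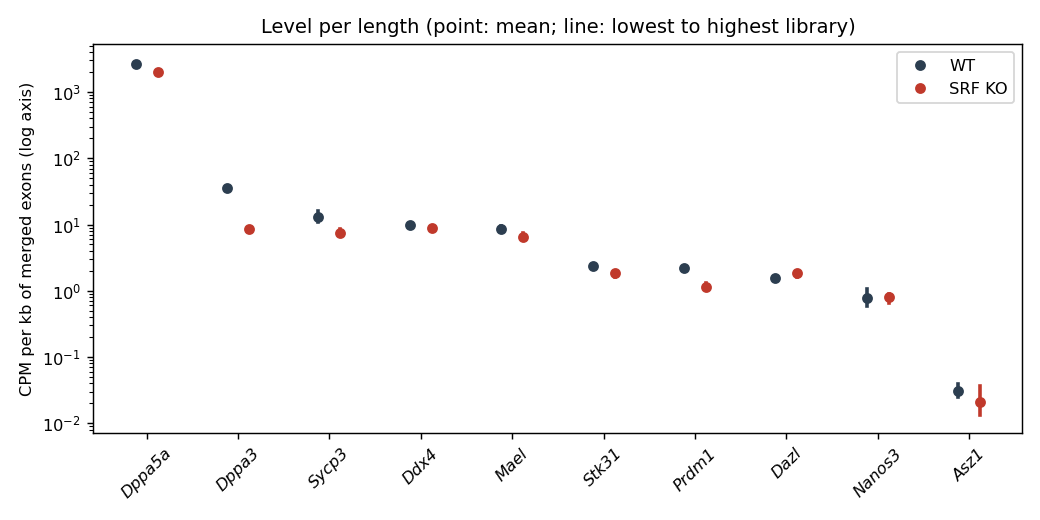
Mean level of each of the 10 germ line genes in CPM per kb of merged exons (log axis) in WT and SRF KO (n = 3 each), with lines from the lowest to the highest library and genes ordered by the WT mean. Dppa5a lies far above the others, Asz1 near the floor, and Dppa3 shows the widest gap between the groups.

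Of the 10 members, 9 had enough counts to be tested. SRF KO was compared with WT in a single fit over all genes (the edgeR quasi-likelihood test), and calls required a Benjamini-Hochberg adjusted p under 0.05. Lower levels in SRF KO were called for 6 members, Dppa3, Prdm1, Sycp3, Mael, Dppa5a and Stk31, and higher levels for 0. At an unadjusted p under 0.05 the counts were 7 lower and 1 higher, and DESeq2 called 5 lower and 0 higher. Among all 14778 genes tested, 21.3% were called lower and 21.2% higher, 42.4% in all. The median log2 fold change of the 9 tested members was -0.42, against -0.01 for all genes. The SRF KO and WT values did not overlap for 7 of the 9, all with SRF KO below WT, where 26.5% of all genes were separated in that direction, 26.2% in the other and 52.7% in either.

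Several other things differed between the cultures, where 21.2% of all tested genes were higher and 21.3% lower. Of 17 tested markers of extraembryonic endoderm 16 were higher in SRF KO, with a summed level of 3999 to 4303 CPM against 1001 to 1080 CPM in WT. Of 20 fibroblast markers 19 were higher, with sums of 1901 to 2294 against 975 to 1118 CPM, and all 9 tested markers of the 2-cell-like state were higher, with sums of 23.7 to 27.4 against 7.70 to 11.2 CPM. Of the 10 pluripotency markers 5 were lower and 0 higher (0 also at an unadjusted p under 0.05 and by DESeq2), with a median log2 fold change of -0.27. Of 8 tested trophoblast markers 3 were lower and 0 higher, with sums of 57.3 to 59.6 against 61.1 to 64.3 CPM. The 2 most abundant, Krt8 and Eomes, had log2 fold changes of 0.12 and 0.09 (edgeR adjusted p 0.209 and 0.382). Another of the listed markers, Tpbpa, was at 0 in every library. The part of these cell types in the members' values was not tested, and in bulk RNA fewer cells of a type and less RNA per cell cannot be told apart.

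Among the genes of early germ cells, Dppa3 differed most. Its product (also called Stella) is inherited through the egg and protects the maternal genome from loss of methylation, and in cultured pluripotent cells it marks the naive state. It had 7.77, 7.78 and 7.12 CPM in SRF KO replicates 1 to 3 and 32.3, 34.1 and 29.6 CPM in WT replicates 1 to 3. The highest SRF KO library was far under the lowest WT library. SRF KO held 23.6% of the WT level, a log2 fold change of -2.08 (SE 0.08, 95% interval -2.26 to -1.90, adjusted p 6.2e-09 by edgeR), and only 0.156% of tested genes had a lower fold change. The gene lies on chr6:122626410-122630272 (plus strand, GENCODE M21). A pseudogene, Dppa3-ps, matches its transcript over at least 150 bases at 95% identity or more and is not among the table's entries, so reads that fit both may have been assigned to Dppa3 or dropped.

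Prdm1 encodes the repressor BLIMP1, which starts the germ cell fate and silences the somatic program there, and it is also active in the visceral endoderm of the embryo. It was at 6.36, 5.70 and 7.29 CPM in SRF KO and at 11.5, 12.5 and 12.6 CPM in WT. Every SRF KO library was under every WT library, and the group mean was 52.8% of WT. The log2 fold change was -0.92 (SE 0.10, adjusted p 2.7e-05 by edgeR). Prdm1 (chr10:44437177-44528501, minus strand) thus fell while 16 of 17 endoderm markers rose, Sox17 among them with 5.81 ± 0.470 CPM in SRF KO against 0.486 ± 0.0318 CPM in WT (SD, n = 3). Of the 2 most abundant endoderm markers, Sparc rose (log2 fold change 1.80) and Apoe was the 1 that fell. Apoe was at 479 ± 21.3 CPM in SRF KO against 580 ± 25.1 CPM in WT (SD, n = 3; log2 fold change -0.28, edgeR adjusted p 0.00151).

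Nanos3 encodes an RNA-binding protein that keeps primordial germ cells alive, and its counts were 22, 16 and 24 in SRF KO and 23, 14 and 28 in WT. The groups overlapped throughout. Its log2 fold change was 0.07 (SE 0.27, adjusted p 0.867 by edgeR), and the 95% interval of -0.53 to 0.67 leaves room for changes in either direction. The sign turned without SRF KO replicate 3 (-0.01), WT replicate 1 (-0.03) or WT replicate 2 (-0.06), so no direction can be given at this depth.

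Dppa5a, a small RNA-binding protein gene with high expression in pluripotent cells and early germ cells, was the most abundant member. It had 1208, 1227 and 1227 CPM in SRF KO, which were close to each other, and 1774, 1529 and 1605 CPM in WT, which were spread more widely. The groups did not overlap, and the log2 fold change was -0.42 (SE 0.06, 95% interval -0.55 to -0.29, adjusted p 0.000150 by edgeR). Its transcript (chr9:78367052-78368177, minus strand) has 7 near-identical matches in other genes of the annotation at the same limits. Of those in the table, Gm6083 had a log2 fold change of -0.46 (edgeR adjusted p 0.138) and Pigp of 0.07 (edgeR adjusted p 0.539). Gm6083 had at most 37 counts and Pigp at most 341 in any library, against at least 32480 for Dppa5a, and how the authors' counting shared reads between such copies is not given in the sources used here.

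**Figure D2:**
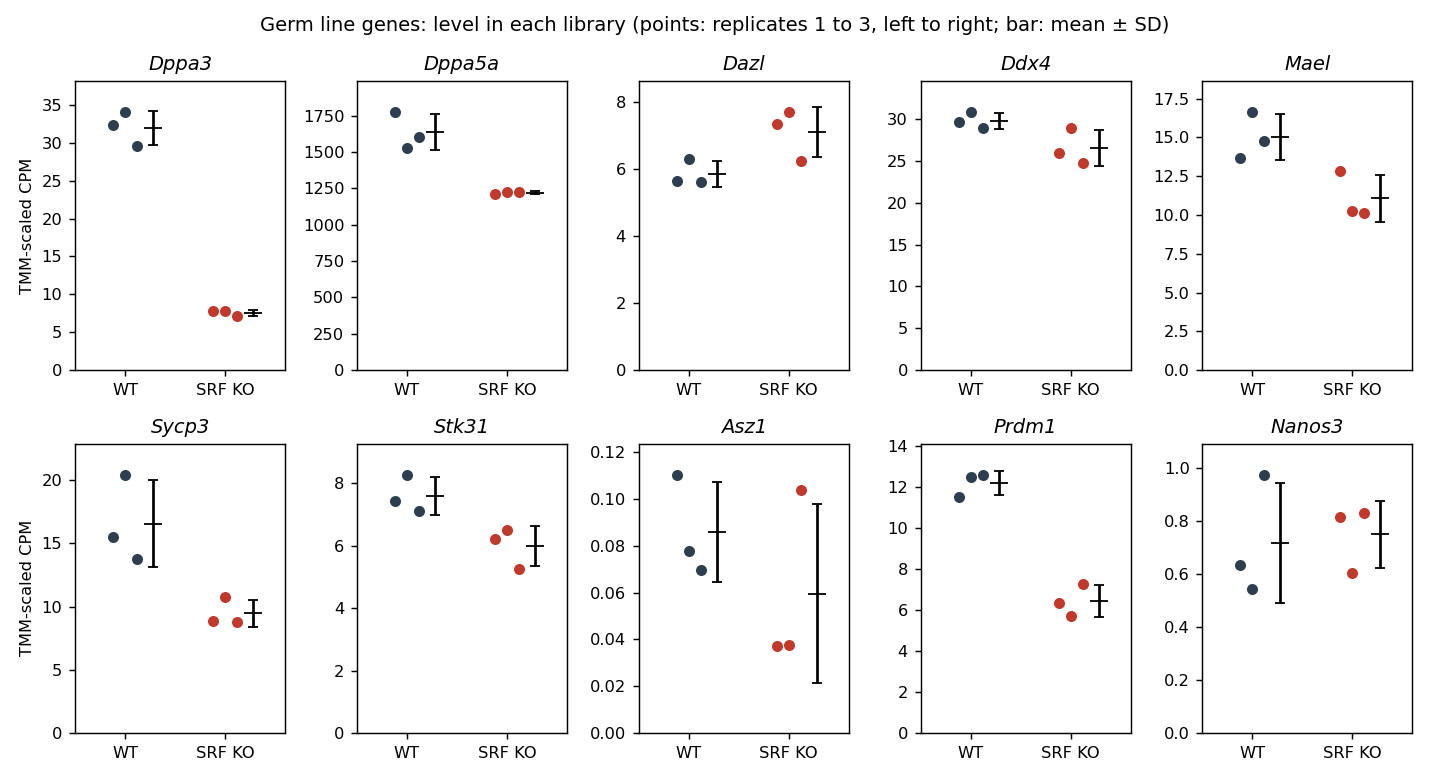
TMM-scaled CPM of each of the 10 germ line genes in the 3 WT and 3 SRF KO libraries (points, replicates 1 to 3 from left to right) with the mean and SD beside them, each panel on its own axis from 0. The SRF KO points lie below all WT points for 7 genes, overlap them for Dazl and Nanos3, and overlap them for Asz1, where single reads make the steps.

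The genes of the later germ line have promoters that are known targets of methylation in body cells. Sycp3 encodes a protein of the axial element, the scaffold along which chromosomes pair in meiosis. It was at 8.85, 10.7 and 8.82 CPM in SRF KO and at 15.5, 20.4 and 13.7 CPM in WT. The groups were separate, with WT replicate 2 well above the other WT libraries. Its log2 fold change was -0.80 (SE 0.14, adjusted p 0.000721 by edgeR), and without WT replicate 2 it was -0.63. An exon of Chpt1, a phospholipid synthesis gene on the opposite strand, overlaps Sycp3 exons (chr10:88459569-88473236), and because the strand setting of the counting is not given in the sources used here, reads of both genes cannot be told apart in that stretch. Chpt1 itself had a log2 fold change of -0.12 (edgeR adjusted p 0.312).

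Mael, which acts in the nuclear silencing of transposons by piRNAs, was at 12.8, 10.3 and 10.1 CPM in SRF KO and at 13.7, 16.6 and 14.7 CPM in WT. SRF KO replicate 1 came close to the lowest WT library without reaching it. The log2 fold change was -0.44 (SE 0.11, adjusted p 0.00707 by edgeR). The gene lies on chr1:166201201-166238747 (minus strand).

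Stk31, which encodes a Tudor domain protein of germ cells, was at 6.21, 6.50 and 5.25 CPM in SRF KO and at 7.43, 8.28 and 7.11 CPM in WT. These groups were also separate, by a narrow margin. The log2 fold change of -0.34 (SE 0.11, adjusted p 0.0260 by edgeR) was the weakest of the 6 calls. It was lost without SRF KO replicate 1 (-0.37, edgeR adjusted p 0.0572), SRF KO replicate 3 (-0.26, 0.122) or WT replicate 1 (-0.36, 0.0568), and under DESeq2 (-0.34, 0.0606). The gene lies on chr6:49395604-49469501 (plus strand).

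Ddx4 encodes VASA, the RNA helicase of the germ granule. Its values were 25.9, 28.9 and 24.7 CPM in SRF KO against 29.6, 30.8 and 28.97 CPM in WT. The highest SRF KO library lay just below the lowest WT library, but the log2 fold change of -0.17 (SE 0.07) missed the threshold, with an adjusted p of 0.0808 by edgeR. It passed without SRF KO replicate 2 (-0.23, edgeR adjusted p 0.0382). Ddx4 (chr13:112598333-112652475, minus strand), whose promoter window had both motifs that Sycp3 also holds, had a 95% interval of -0.33 to -0.01, and Sycp3 of -1.11 to -0.50. The difference between the 2 genes was not tested.

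Dazl encodes an RNA-binding protein that lets germ cells proceed to gamete formation. It was the only member with a higher mean in SRF KO by more than its SE, at 7.36, 7.71 and 6.26 CPM against 5.66, 6.30 and 5.61 CPM in WT. SRF KO replicate 3 fell just under WT replicate 2, so the groups overlapped. The log2 fold change of 0.28 (SE 0.11, 95% interval 0.04 to 0.52) missed the threshold, with an adjusted p of 0.0589 by edgeR. Without SRF KO replicate 3 it was 0.37 (edgeR adjusted p 0.0334) and without WT replicate 2 it was 0.33 (edgeR adjusted p 0.0200), and both of these passed. The gene lies on chr17:50279395-50293636 (minus strand).

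Asz1 encodes a scaffold protein of the germ granule that the piRNA pathway needs. It had 1, 1 and 3 counts in SRF KO and 4, 2 and 2 counts in WT and was under the filter on low counts. With no filter its log2 fold change was -0.51 (SE 0.84, adjusted p 0.697 by edgeR), so a difference was not detectable at this depth. The plot of fold changes places the 9 tested members side by side.

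**Figure D3:**
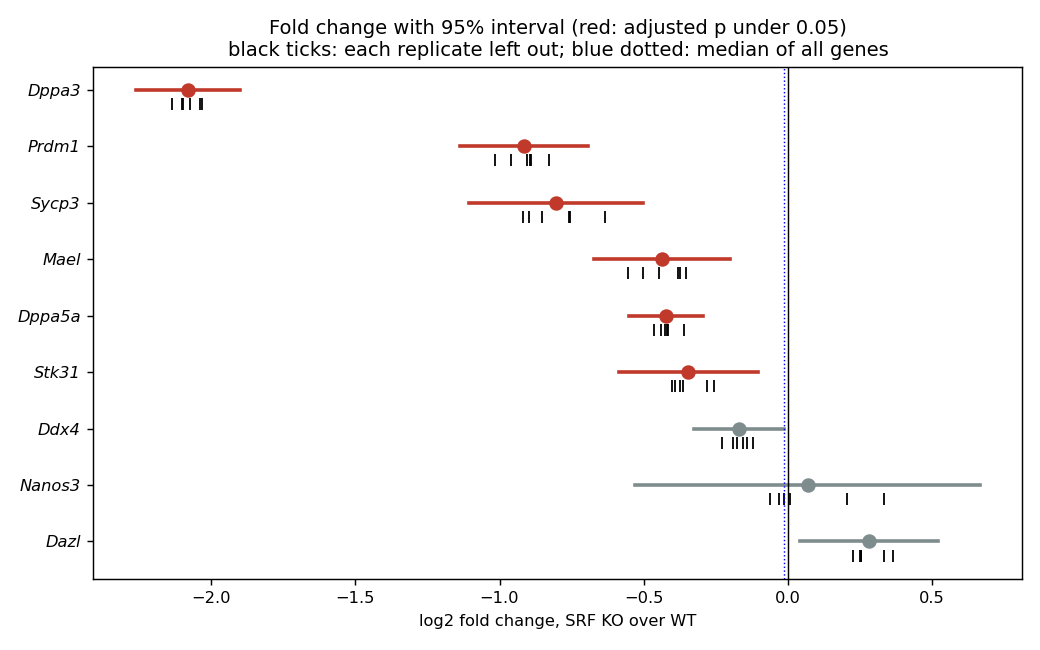
Log2 fold change of SRF KO over WT for the 9 tested germ line genes (points) with 95% intervals (lines), red where the adjusted p is under 0.05 and grey otherwise. Black ticks give the value with each replicate left out in turn, and the dotted line marks the median of all genes, -0.01; Dppa3 stands at -2.08, and Dazl and Nanos3 lie right of 0.

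Within both groups, replicate 2 was the highest and replicate 3 the lowest library for 5 of the tested members, Dppa3, Dazl, Ddx4, Sycp3 and Stk31. WT replicate 2 was the highest WT library for 6 of the 9 tested members and for 37.2% of all tested genes, and SRF KO replicate 2 was the highest SRF KO library for 6 of the 9 and for 36.9%. SRF KO replicate 3 was the lowest SRF KO library for 6 of the 9 and for 31.5% of all tested genes, and WT replicate 3 the lowest WT library for 5 of the 9 and for 29.7%. These orders were seen in the same values that they describe and have no test. WT replicate 2 is the library that stood apart on the second component, and its part in the members' order was not tested.

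Other genes of the germ line were then examined in 4 lists typed from general knowledge, which hold none of the 10 members. Together they hold 97 genes, of which 92 were in the table and 74 could be tested. Of these, 25 were lower and 6 higher in SRF KO, with a median log2 fold change of -0.14, where 21.3% of all tested genes were lower and 21.2% higher. Without WT replicate 2 the number higher was 10. Calls in that fit were also more frequent among all genes, with 3652 higher and 3809 lower of 15012 tested. With all libraries they were 3132 and 3141 of 14778. The plot by list gives the genes of each of the 4 lists, and differences between lists were not tested.

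Primordial germ cell genes were mostly lower, with 13 of 19 tested lower, 1 higher and a median of -0.42. Of all tested genes 21.3% were lower and 21.2% higher. Without WT replicate 2, when more of all genes were called, the number lower was 15. The list also holds genes that act in pluripotent cells, Pou5f1 and Dppa2 among them, so that it does not single out germ cells. Ifitm1, a membrane protein gene of early germ cells, was at 19.19 ± 0.877 CPM in SRF KO against 66.9 ± 3.60 CPM in WT (log2 fold change -1.80). Tfap2c, which acts with PRDM1 in setting the germ cell fate, was at 33.1 ± 1.89 and 71.0 ± 5.33 CPM (-1.10). Prdm14, the third gene of that circuit, named after its values were seen, was at 9.82 ± 1.15 and 15.8 ± 1.27 CPM (-0.69; SD, n = 3 for each), with an edgeR adjusted p of 0.000211. All 3 genes of the circuit were therefore lower in SRF KO. Because Prdm14 was picked with its values known, the 3 together are no test of the circuit. Of the 10 pluripotency markers 5 were also lower and 0 higher, with a median of -0.27. Kit, the receptor that germ cells need to survive and migrate, fell by 0.68, and Dmrt1, a regulator of germ cell development, fell by 0.78 on the log2 scale. The 1 gene that rose was Dppa2, at 149 ± 6.76 against 114 ± 5.69 CPM (SD, n = 3; log2 fold change 0.39, edgeR adjusted p 0.000178), a chromatin factor that keeps developmental and germ line promoters open in pluripotent cells.

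The meiosis genes were lower for 9 of 23 tested and higher for 0 (1 at an unadjusted p under 0.05, and 0 by DESeq2), with a median of -0.21. Among all tested genes, 21.3% were lower and 21.2% higher. Stra8, the gene that retinoic acid switches on at the start of meiosis, was at 5.28 ± 0.441 CPM in SRF KO against 11.9 ± 1.23 CPM in WT (SD, n = 3; log2 fold change -1.17, edgeR adjusted p 5.9e-06). Rec8, the meiotic cohesin, and Hsf2bp and Mnd1, which act in meiotic recombination, had log2 fold changes of -0.57, -0.47 and -0.44. Sycp1 and Sycp2, which build the synaptonemal complex with Sycp3 and were named after their values were seen, had log2 fold changes of 0.08 and -0.00068 (edgeR adjusted p 0.689 and 0.998). Without WT replicate 2, 1 meiosis gene was called higher.

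Among the piRNA genes, to which Mael, Ddx4 and Asz1 also belong by function, 3 of 18 tested were lower and 0 higher, with a median of -0.14. The share called lower is no more than the 21.3% of all genes. At an unadjusted p under 0.05 there were 2 higher, DESeq2 called 2 higher, and 3 were called higher without WT replicate 2. Leaving out SRF KO replicate 2, WT replicate 1 or WT replicate 3 gave 1 higher, and with no filter on low counts there were 3. Tdrd12, a Tudor domain helicase of the pathway, was the clear fall, at 21.04 ± 0.981 CPM in SRF KO against 61.1 ± 2.55 CPM in WT (SD, n = 3; log2 fold change -1.54, edgeR adjusted p 7.2e-09). Tdrd5 had a log2 fold change of -0.44. Mybl1, the transcription factor of the pathway in the testis, had -0.25, a call that was lost without SRF KO replicate 1, SRF KO replicate 3, WT replicate 1 or WT replicate 2.

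The last list holds other germ line genes, many of them reported to depend on promoter methylation. Of 14 tested, where 21.2% of all genes were higher and 21.3% lower, 5 were higher and 0 lower (0 also at an unadjusted p under 0.05 and by DESeq2), with a median of 0.23. The number higher was 3 without WT replicate 1, and the median was 0.08 without SRF KO replicate 1, 0.14 without WT replicate 1 and 0.15 without WT replicate 3. With SRF KO replicate 3, WT replicate 1 or WT replicate 2 left out, 1 gene was called lower. Rpl10l, a ribosomal protein retrogene of the testis, was at 13.5 ± 0.863 CPM in SRF KO against 8.36 ± 0.580 CPM in WT, and D1Pas1, a testis helicase retrogene, at 29.0 ± 0.414 and 21.9 ± 0.242 CPM (SD, n = 3). Their log2 fold changes were 0.69 and 0.41. Near-identical matches in 1 other gene of the annotation were found for both, and likewise for Ifitm1, Tdrd5, Mnd1, Tfdp1 and Rybp among the genes that the naming rule took from the germ line and repressor lists, so that the counts of all of these are uncertain. Usp26 (0.75), Mageb4 (0.69) and Tktl2 (1.01) were the other rises, with means of at most 7.27 CPM, and the call of Tktl2 was lost without SRF KO replicate 1 or WT replicate 1. Of this list 12 genes were under the filter.

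**Figure D4:**
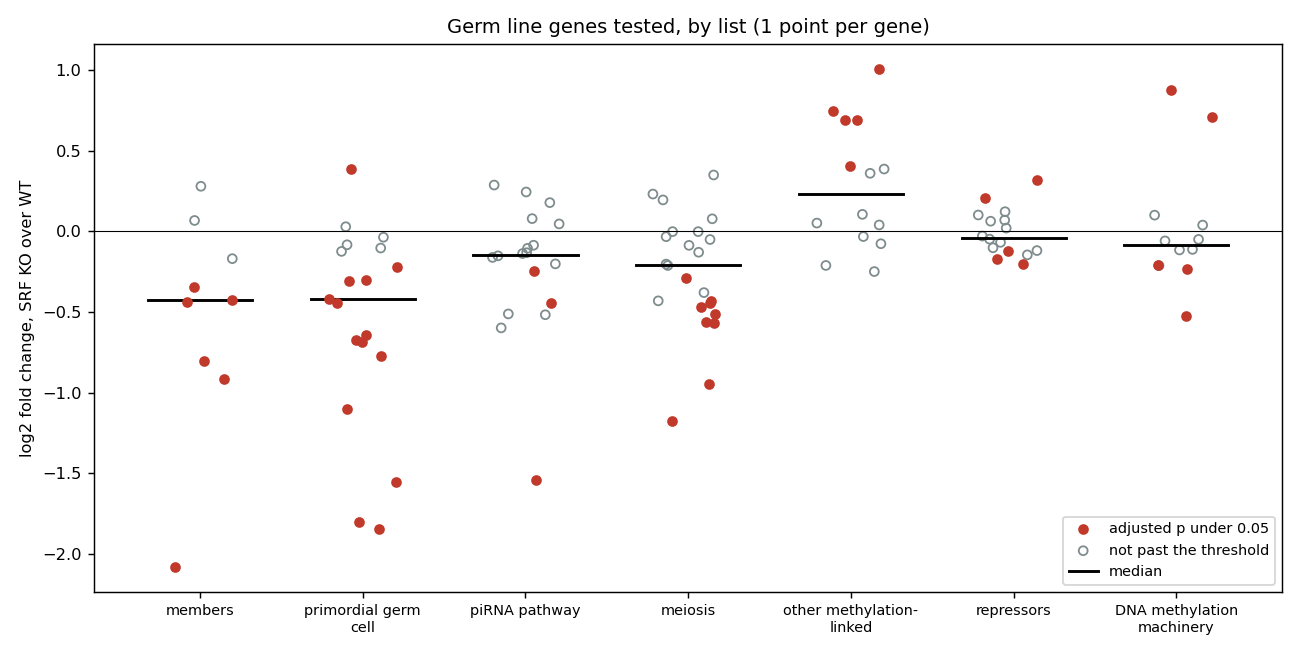
Log2 fold change of SRF KO over WT for each tested gene (1 point per gene, red where the adjusted p is under 0.05) of the 9 tested members, 4 further germ line lists, the repressors of germ line genes and the DNA methylation machinery, with a bar at each median. The medians run from -0.42 for the members and the primordial germ cell genes to 0.23 for the other methylation-linked genes.

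Finally, the genes that are known to hold the germ line program down were examined. All 16 listed repressors, the subunits of the MGA and PCGF6 Polycomb complex with histone methyltransferases and a demethylase, were tested, and 2 were higher and 3 lower, with a median of -0.04 and a range from -0.20 to 0.32. Both shares lie under those of all genes, 21.2% higher and 21.3% lower. E2f6, whose motif core is shown above, was at 28.1 ± 1.27 CPM in SRF KO against 22.5 ± 0.217 CPM in WT (SD, n = 3; log2 fold change 0.32, edgeR adjusted p 0.00209). Its dimer partner Tfdp1 had a log2 fold change of 0.21, and the shared subunits Wdr5 and Rybp had -0.20 and -0.17. The methyltransferase gene Setdb1 had -0.12, with an edgeR adjusted p of 0.0497, just under the threshold. These calls were small. Leaving out SRF KO replicate 1 or 3 left 1 lower, and leaving out SRF KO replicate 2 or WT replicate 1, or using DESeq2, left 2. The number lower was also 2 with another scaling of the libraries (RLE), with no filter on low counts and with gene entries fitted alone. Without WT replicate 2, when more of all genes were called, 4 were higher and 4 lower.

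Of 12 genes that write or erase DNA methylation, 2 were higher and 3 lower, with a median of -0.08, so these shares too were near those of all genes. The de novo methyltransferase gene Dnmt3a was at 447 ± 1.46 CPM in SRF KO against 243 ± 0.942 CPM in WT, and the dioxygenase gene Tet3 at 20.6 ± 1.52 and 12.5 ± 0.946 CPM (SD, n = 3). Their log2 fold changes were 0.88 and 0.71. Dnmt3l, the cofactor of de novo methylation in germ cells, fell by 0.52, the maintenance methyltransferase gene Dnmt1 by 0.24 and its partner Uhrf1 by 0.21 on the log2 scale. Without WT replicate 2, when more of all genes were called, 3 were higher and 4 lower. Methylation itself was not measured in these libraries.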

How the data were processed

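RNA was measured in 3 SRF KO and 3 WT iPSC libraries. Per the labels' protocols, total RNA was sequenced as paired reads on an Illumina instrument after removal of adaptor, low-quality and empty reads. The submitters' processing notes name mm10 and DESeq2; the aligner, counting program, annotation and strand setting are not given in the sources used here. The deposited table holds whole-number counts per gene and per transposable element subfamily, unnormalized, judged from the values.

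All entries were fitted together (R 4.3.3, edgeR 4.0.16): filterByExpr with a minimum count of 10, TMM scaling, the quasi-likelihood test without a replicate term, and Benjamini-Hochberg adjustment over all entries. DESeq2 1.42.0 was an alternative. Counting error is the square root of a count, and floors (3 counts) cover it alone, because no molecular identifiers mark single molecules. Replicate pairs differed by a chi-square per degree of freedom of 1.83 to 15.5, so each library counted as 1 sample. The scripts were tested on simulated data with known changes. The simulation changed 200 entries, whereas 6273 genes were called in the data, so it checks the code and not the error rate here.

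The members and lists were chosen with earlier results of these data known. Named genes are Srf, the members, up to 4 called genes with the smallest p in each germ line or repressor list, up to 2 most abundant genes of each marker list (those not used in a result are left out). Outside it, Dppa2, Prdm14, Sycp1, Sycp2, Mageb4, Setdb1, Uhrf1, Sox17, Ldhc, Pou5f1, markers at 0 and genes that share sequence with a member were named after their values were seen. Exon length came from GENCODE M21 and promoters from RefSeq, both on GRCm38.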

Additional observations from a re-analysis of the deposited data

How the results depend on the processing

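The 6 main counts were recomputed under 11 alternatives each, 66 comparisons in all, of which 62 stayed within 1.5 times. Over the fits that left out one replicate each, members lower in SRF KO numbered between 5 and 7, members higher between 0 and 1, further germ line genes lower between 22 and 28 and higher between 5 and 10 (10 without WT replicate 2). Genes called higher overall numbered between 2457 and 3652 and lower between 2274 and 3809. The number of members higher was 1, Dazl, with a replicate block and in the fits lacking SRF KO replicate 3 or WT replicate 2, and the cause was not tested. Among 45 single genes, 475 of 495 comparisons kept direction and call, 12 were weaker (Stk31, Mybl1, Tktl2 and Rybp), 5 stronger (Dazl and Ddx4) and 3 reversed, all of Nanos3, to -0.012 without SRF KO replicate 3, -0.031 without WT replicate 1 and -0.061 without WT replicate 2 (its range over the fits that left out one replicate was -0.061 to 0.33). Dppa3, Dppa5a, Prdm1, Sycp3 and Mael kept direction and call under all alternatives run.

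The replicate numbers were not taken as pairs, since 1 of the same-numbered correlations was under 0.1: the correlations of same-numbered deviations were 0.057, 0.383 and 0.236, replicates 2 and 3 matched their own number best, and SRF KO replicate 1 matched WT replicate 3 best. With the replicate block 7 members were lower and 1 higher, because Ddx4 (-0.17) and Dazl (0.28) passed the threshold, the repressors had 3 higher and 6 lower, and 3659 genes were higher and 3853 lower. Depth limits Asz1 and Nanos3, whose counting errors in WT are 61.2% and 21.5% per library.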

Other observations

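Few late germ cell genes were transcribed at a level that could be tested. Of 18 spermatid and oocyte genes in the table, 4 passed the filter on low counts, and 2 of these were lower in SRF KO and 0 higher (0 also at an unadjusted p under 0.05 and by DESeq2). Among all tested genes 21.3% were lower and 21.2% higher, and 4 genes are too few to set against these shares. Ooep, an egg gene of the subcortical maternal complex, was at 36.7 ± 2.98 CPM in SRF KO against 75.9 ± 3.09 CPM in WT (SD, n = 3). Its log2 fold change was -1.05 (edgeR adjusted p 2.8e-07). Ldhc, the lactate dehydrogenase of sperm, had 17, 8 and 14 counts in SRF KO and 40, 32 and 23 counts in WT, a log2 fold change of -1.14 (edgeR adjusted p 0.00827). Zp3, an egg coat gene, was at 4.19 ± 0.460 and 3.41 ± 0.567 CPM (SD, n = 3), and its log2 fold change of 0.28 missed the threshold, with an adjusted p of 0.151 by edgeR.

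Because the title of the study concerns expression noise, the spread of the members between replicate libraries was set beside the spread that counting alone gives. The coefficient of variation was smaller in SRF KO for 4 of the 9 tested members and smaller in WT for 5. Dppa5a showed the widest contrast, with 0.899% in SRF KO and 7.67% in WT, where counting error alone would give 0.546% and 0.448%. For Sycp3 the values were 11.6% and 20.9%, and for Prdm1 they were 12.4% and 4.86%, with counting errors of 7.502% and 5.22%. These are values of 3 libraries each, with no test, and they describe libraries rather than cells.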
